A study of Mus musculus with 36 samples.

Results

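Ketone bodies, lactate and free fatty acids are read at the cell surface by a small set of receptors that couple to G proteins, and the mRNA of 5 of them was followed across 4 types of mouse primary cells. The 5 genes were picked by symbol from a table of 54347 genes and all 5 were found. They are *Hcar2* (ENSMUSG00000045502), the receptor for β-hydroxybutyrate (βOHB) and nicotinate that also binds butyrate; *Hcar1* (ENSMUSG00000049241), the lactate receptor; *Ffar2* (ENSMUSG00000051314), a receptor for short-chain fatty acids such as acetate, propionate and butyrate; *Ffar4* (ENSMUSG00000054200), a receptor for long-chain fatty acids; and *Gpr84* (ENSMUSG00000063234), a receptor for medium-chain fatty acids. For each gene the level in the 12 groups of libraries is given by cell type, as counts where these were few. The change under each compound is given for the cell types that detected the gene.

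The cells came from male C57Bl/6 mice. Adipocytes were grown from the stromal vascular cells of inguinal fat pooled from several mice and differentiated with a cocktail that held rosiglitazone. Macrophages were grown from bone marrow in L929-conditioned medium, myotubes were differentiated from hindlimb myoblasts, and hepatocytes, described in the study's methods as C57BL/6NHsd, were isolated by collagenase perfusion. Every cell type was given phosphate-buffered saline (PBS, the control), 5 mM βOHB (the R enantiomer, as its sodium salt) or 5 mM butyrate (labelled NaB, sodium butyrate) for 6 h, and each of the 12 groups held 3 libraries. The sources used here do not say whether the 3 libraries of a group came from separate animals or cultures, so the p-values measure the spread between these libraries, which may be technical. Adipocytes and macrophages were treated in the same medium, while myotubes and hepatocytes each had a medium of their own, which cannot be told apart from cell type, and for the hepatocytes neither can the substrain. The study used animals in Wageningen and got some of the primary cells in Munich, without naming which. Site therefore cannot be told apart from cell type either.

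HCAR2 and HCAR1 couple to inhibitory G proteins (Gi), which hold back adenylyl cyclase, lower cyclic AMP and so restrain the release of fatty acids from the adipocyte lipid droplet. FFAR2 couples to Gi and to Gq, FFAR4 signals largely through Gq and β-arrestin, and GPR84 couples to Gi. In fat tissue HCAR2 is known as the receptor through which nicotinate and βOHB suppress lipolysis, and GPR84 is best known from macrophages and other myeloid cells.

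The estimated counts summed to between 18366289 and 23221473 per library. Markers of the labelled cell type were present in each control group, with 5 of 6 adipocyte markers, 8 of 8 macrophage markers, 6 of 6 myotube markers and 6 of 6 hepatocyte markers at 1 CPM (counts scaled to a common library size) or more in each library. *Lep* was the adipocyte marker that fell below that level. The 4 fibroblast markers summed to 3882 to 4416 CPM in control adipocytes, beside 7892 to 8581 CPM for the adipocyte list. They summed to 1375 to 1460 CPM in control macrophages, 777 to 931 CPM in control myotubes and 14.7 to 17.5 CPM in control hepatocytes. Macrophage markers summed to between 291 and 345 CPM in control adipocytes, against 17157 to 17317 CPM in control macrophages. In myotubes the macrophage sum was 115 to 291 CPM under PBS, 50.1 to 114 CPM under βOHB and 28.2 to 80.5 CPM under butyrate. The 3 butyrate myotube libraries also held hepatocyte markers at 29.1, 522 and 120 CPM, and βOHB myotube replicate 3 held 22.5 CPM, where the other βOHB and the control myotube libraries held at most 0.0459 CPM. In macrophages the myotube markers summed to 5.80 to 12.2 CPM under PBS and 10.3 to 14.0 CPM under βOHB. They summed to 18.8, 22.2 and 57.0 CPM in butyrate replicates 1, 2 and 3. In bulk RNA, fewer cells of a type and less RNA per cell cannot be told apart.

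A receptor was called detected in a group when it reached 1 CPM in each of the 3 libraries. By that measure adipocytes expressed *Hcar1*, *Hcar2*, *Ffar2* and *Ffar4*, macrophages expressed *Gpr84* under PBS and βOHB and a low level of *Hcar2* under PBS, hepatocytes expressed *Ffar4* and, under butyrate, *Hcar2*, and myotubes expressed none of the 5. *Ffar4* was detected in 6 of the 12 groups, *Hcar2* in 5, *Hcar1* and *Ffar2* in 3 each and *Gpr84* in 2. With a limit of 0.5 CPM *Hcar2* was detected in 7 groups and the other counts stayed as they were. The intervals given for counts cover counting error only.

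**Figure D1:**
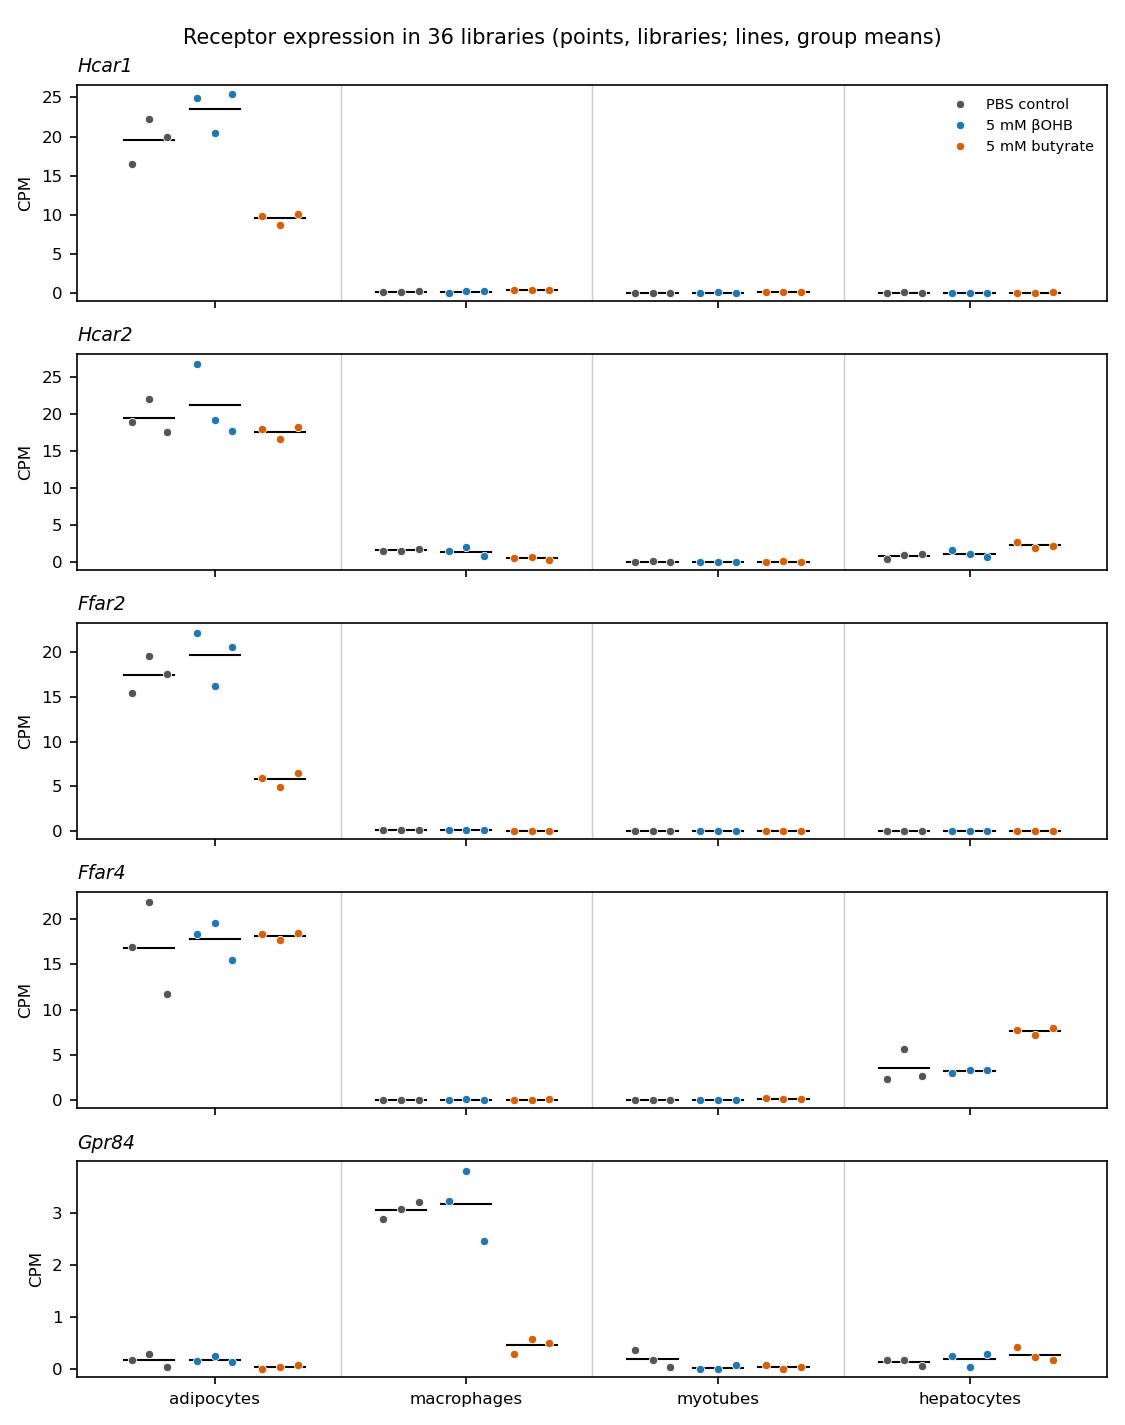
CPM (y axis, linear, its own scale in each panel) of the 5 receptors in the 36 libraries by cell type (x axis) and treatment (colour), with points for libraries and lines for group means. In control libraries *Hcar1*, *Hcar2*, *Ffar2* and *Ffar4* stood between 11.8 and 22.3 CPM in adipocytes, and *Gpr84* stood between 2.88 and 3.20 CPM in macrophages.

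Within control adipocytes the levels were compared per kb of exon, since the receptors differ in length. *Ffar4* averaged 12.0 ± 3.62 CPM per kb and *Hcar2* 10.1 ± 1.21 CPM per kb (SD, n = 3), and these neighbours did not differ beyond their spread. *Ffar2* followed at 6.26 ± 0.743 CPM per kb and *Hcar1* at 5.96 ± 0.891 CPM per kb, again without a gap between their libraries. *Gpr84* was last at 0.0998 ± 0.0751 CPM per kb. In control macrophages *Gpr84* led at 1.77 ± 0.0930 CPM per kb, ahead of *Hcar2* at 0.807 ± 0.0964 CPM per kb. In control hepatocytes *Ffar4* stood at 2.57 ± 1.31 CPM per kb and *Hcar2* at 0.440 ± 0.187 CPM per kb. Measured against its longest transcript in place of all its exons, *Ffar2* rose to 7.59 CPM per kb in adipocytes and kept its place.

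All 5 receptors passed the filter on low counts (more than 1 CPM in at least 6 libraries), but *Hcar1* and *Ffar2* did so through the 9 adipocyte libraries alone and *Gpr84* through the 6 macrophage libraries without butyrate. Their presence among the 15340 genes tested therefore already rested on those cells, and no count of differences between cell types is read for them. Between control macrophages and hepatocytes *Hcar2*, which passed through more than 1 cell type, differed by 0.87 on the log2 scale (edgeR adjusted p = 0.0415), a call lost without control hepatocyte replicate 1 (0.56, edgeR adjusted p = 0.209) and without 4 of the other 5 control libraries in turn. The call was also lost with limma-voom (0.94, adjusted p = 0.0911).

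The question put to these data was whether a receptor is present in each cell type at all and whether its mRNA answers its own ligand. *Hcar2* and *Ffar2* are the members for which a ligand was given: βOHB and butyrate for *Hcar2*, and butyrate for *Ffar2*. Under βOHB, 0 of the 5 receptors passed the test (edgeR quasi-likelihood, Benjamini-Hochberg adjusted p below 0.05 over all genes) in any cell type, against a background of 0.00652% of genes called in adipocytes, 0% in macrophages, 2.91% in myotubes and 0.00652% in hepatocytes. At an unadjusted p under 0.05 the counts were 0, 0, 1 and 0, the single one being *Gpr84* in myotubes, and limma-voom and DESeq2 called 0 in each cell type. Under butyrate 2 of 5 receptors were called in adipocytes, where 61% of all genes were called, 2 in macrophages (65%), 3 in myotubes (66.5%) and 2 in hepatocytes (63.5%). Those shares lie at or below the background and are no result about the receptors as a set.

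**Figure D2:**
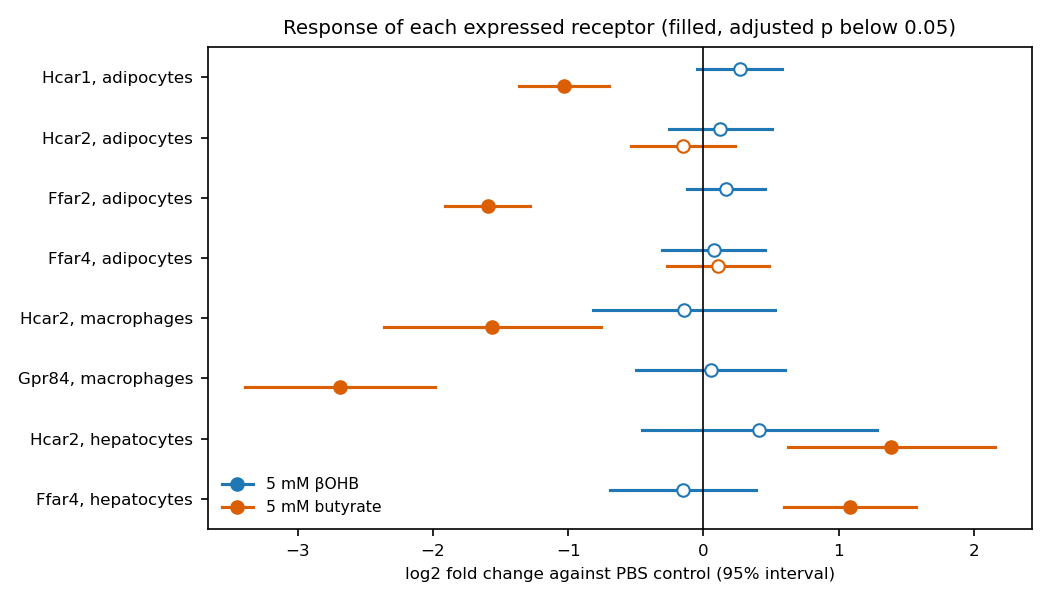
log2 fold change against the PBS control (x axis) with its 95% interval for each receptor in each cell type where a group detected it (y axis), for βOHB and butyrate (colour), with filled points for an adjusted p below 0.05. The butyrate estimates run from -2.69 for *Gpr84* in macrophages to 1.39 for *Hcar2* in hepatocytes, and each βOHB interval spans 0.

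*Hcar2* is a gene of 1 exon (chr5:123863570-123865499, minus strand, GRCm38.p6), and 11236 bases separate it from its paralog *Hcar1*. No stretch of 31 bases of its transcript recurs in another gene. In adipocytes it stood at 18.9, 22.0 and 17.5 CPM under PBS, at 26.8, 19.2 and 17.6 CPM under βOHB and at 18.0, 16.6 and 18.1 CPM under butyrate. The 3 sets of libraries overlapped. Its response to βOHB was a log2 fold change of 0.12 ± 0.19 (SE, n = 3, edgeR adjusted p = 0.928), with a 95% interval from -0.26 to 0.51. Butyrate gave -0.15 ± 0.19 (edgeR adjusted p = 0.52) with an interval from -0.53 to 0.23.

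In macrophages *Hcar2* was far lower, at 1.44, 1.46 and 1.77 CPM in the PBS libraries, and control adipocytes exceeded this 12.5-fold (95% counting interval 10.3 to 15.3). Under βOHB it read 1.44, 2.01 and 0.773 CPM, on either side of the controls, with a log2 fold change of -0.14 and an interval from -0.82 to 0.53 (edgeR adjusted p = 1). Under butyrate it read 0.608, 0.662 and 0.296 CPM, below each control library. The log2 fold change was -1.56 ± 0.39 (edgeR adjusted p = 0.00087), from 104 counts over the 3 control libraries to 38 over the 3 butyrate libraries. *Csf3r*, the receptor for granulocyte colony-stimulating factor and the one abundant member of the neutrophil marker list in these libraries, moved in the same direction, and the sum of the 4 markers averaged 47.8 CPM under PBS and 9.87 CPM under butyrate, with 1 of the 4 at 1 CPM or more in both. *Ly6g* was at 0 in both groups and *S100a8* and *S100a9* averaged under 1 CPM. The macrophage markers averaged 17223 CPM under PBS and 10878 CPM under butyrate. Butyrate replicate 3, the library with 0.296 CPM of *Hcar2*, held the most myotube marker RNA of the macrophage libraries (57.0 CPM). The part of neutrophil, macrophage or myotube RNA in the *Hcar2* result was not tested.

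Hepatocytes moved the other way. There *Hcar2* was at 0.439, 0.983 and 1.12 CPM under PBS and at 1.63, 1.10 and 0.643 CPM under βOHB, which overlapped. With butyrate it reached 2.65, 1.88 and 2.22 CPM, above all 6 of the other hepatocyte libraries. The increase was 1.39 ± 0.37 on the log2 scale (edgeR adjusted p = 0.00175), or 42 counts in the controls against 125, while βOHB gave 0.41 with an interval from -0.46 to 1.28 (edgeR adjusted p = 0.99). The Kupffer cell marker sum, a sign of liver macrophages, was 2.34 to 2.82 CPM in these controls and 0.842 to 1.11 CPM with butyrate. The macrophage list summed to 92.5 to 116 CPM in the controls, nearly all of it *Cd68*, and 115 to 137 CPM with butyrate. The 3 endothelial markers summed to 61.0 to 68.4 CPM under PBS and 19.2 to 22.5 CPM under butyrate. The part of RNA from these cells in the *Hcar2* result was not tested. The response of *Hcar2* to butyrate differed between macrophages and hepatocytes when tested as an interaction (log2 difference -2.95 ± 0.54, edgeR adjusted p = 4.4e-05), as it did for 44.4% of all genes. It also differed between adipocytes and macrophages (1.41 ± 0.44, edgeR adjusted p = 0.0115), as for 36.6% of genes, although not without butyrate macrophage replicate 3 (1.12, edgeR adjusted p = 0.0636).

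Myotubes gave 2, 1 and 4 counts of *Hcar2* over the 3 libraries of the PBS, βOHB and butyrate groups, so the response of this receptor to either ligand could not be measured there. The control level in adipocytes was 655-fold higher, with a counting interval from 181 to 5412.

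**Figure D3:**
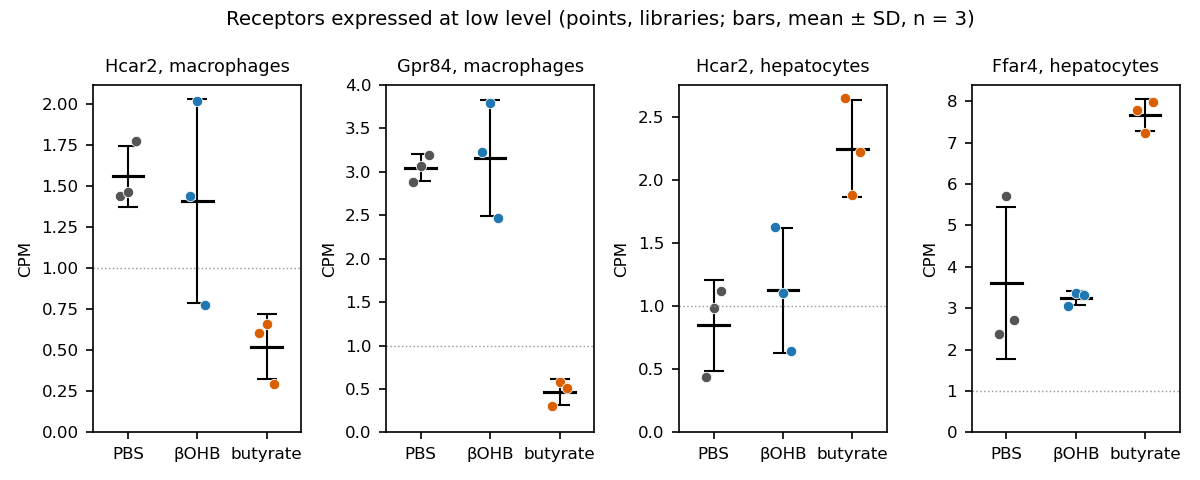
CPM (y axis, linear from 0) of *Hcar2* and *Gpr84* in macrophages and of *Hcar2* and *Ffar4* in hepatocytes by treatment (x axis), with points for libraries, bars for mean ± SD (n = 3) and a dotted line at 1 CPM. The 3 butyrate libraries lie apart from the 3 PBS libraries in each of the 4 panels, lower in macrophages and higher in hepatocytes.

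*Ffar2* (chr7:30818348-30823775, minus strand, up to 3 exons in 6 transcripts) was an adipocyte transcript in these cells. The PBS adipocyte libraries held 15.4, 19.5 and 17.5 CPM and the βOHB libraries 22.1, 16.2 and 20.5 CPM. After butyrate, its own ligand, the level was 5.96, 4.90 and 6.5 CPM, and no butyrate library reached the lowest of the other 6. The log2 fold change under butyrate was -1.60 ± 0.15 (edgeR adjusted p = 8.59e-09), a 3.02-fold decrease, and its size exceeded that of 90.8% of the genes tested in this comparison. Under βOHB the interval ran from -0.12 to 0.46 (edgeR adjusted p = 0.819).

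Outside adipocytes *Ffar2* was nearly absent. The gene was listed at 0 in all 9 hepatocyte libraries, a count that allows up to 0.0610 CPM over the 3 controls, and control adipocytes were at least 286-fold higher when that floor of 3 counts over the group is used. Control myotubes were also listed at 0, which puts adipocytes at least 392-fold higher, and 1 count was found among the 6 treated myotube libraries. Macrophages held 8, 7 and 2 counts over the PBS, βOHB and butyrate groups. The last difference did not pass (edgeR adjusted p = 0.0557) but did with limma-voom (adjusted p = 0.0231), with a count ratio of 0.23 and a counting interval from 0.0238 to 1.15.

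*Hcar1* (chr5:123876736-123880020, minus strand, 1 exon) was, like *Ffar2*, detected in adipocytes and lower there with butyrate. It stood at 16.5, 22.3 and 20.0 CPM in PBS adipocytes, at 24.9, 20.5 and 25.4 CPM after βOHB and at 9.90, 8.73 and 10.1 CPM after butyrate. Each butyrate library lay below each of the other adipocyte libraries. Beside *Ffar2* and *Hcar1*, the adipocyte markers *Plin1* (895 to 375 CPM), *Cidec* (428 to 202), *Pparg* (263 to 136) and *Adipoq* (754 to 533) were also lower with butyrate, *Fabp4* and *Lep* overlapped the controls, and the sum of the 6 was 7892 to 8581 CPM under PBS and 6244 to 7610 CPM under butyrate. The sum of 3 endothelial markers averaged 182 and 121 CPM. The sum of 4 fibroblast markers averaged 4222 and 4155 CPM. Of these *Pdgfra* was lower with butyrate (197 to 109 CPM) and *Thy1* higher (127 to 173), while *Col1a1* (3411 and 3403) and *Dcn* (488 and 470) overlapped the controls. The part of adipocyte state, endothelial RNA or fibroblast RNA in these results was not tested. The decrease of *Hcar1* was 2.05-fold, a log2 change of -1.03 ± 0.16 (edgeR adjusted p = 2.76e-06), whereas the βOHB estimate was 0.27 with an interval from -0.05 to 0.59 (edgeR adjusted p = 0.741). The level in control macrophages was 118.6-fold lower than in adipocytes on 11 counts, and 1 count was found in each of the control myotube and control hepatocyte groups. The βOHB groups held 10 counts in macrophages, 2 in myotubes and 0 in hepatocytes, and butyrate hepatocytes held 1. In macrophages the group count went from 11 to 26 with butyrate, which did not pass (edgeR adjusted p = 0.0798) although the counting interval of the ratio of 2.18 ran from 1.04 to 4.88. It passed with library totals as the sole scaling (edgeR adjusted p = 0.037) and without control macrophage replicate 3 (edgeR adjusted p = 0.0428).

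*Ffar4* (chr19:38097071-38114263, plus strand, 3 exons) was expressed in adipocytes and hepatocytes. Macrophages held 1, 2 and 5 counts over the PBS, βOHB and butyrate groups, and myotubes 1, 1 and 12. Adipocytes held 16.9, 21.9 and 11.8 CPM under PBS, 18.3, 19.6 and 15.5 CPM under βOHB and 18.4, 17.7 and 18.4 CPM under butyrate. The treated libraries lay within the range of the controls, which was the widest of the 3. Neither compound gave a difference that passed, with log2 intervals from -0.30 to 0.46 for βOHB (edgeR adjusted p = 0.969) and from -0.27 to 0.49 for butyrate (edgeR adjusted p = 0.638).

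Hepatocytes held *Ffar4* at 2.38, 5.71 and 2.72 CPM under PBS, so that control adipocytes were 4.68-fold higher (counting interval 4.04 to 5.46). βOHB left it at 3.05, 3.37 and 3.33 CPM (log2 fold change -0.15, edgeR adjusted p = 1). Butyrate raised it to 7.78, 7.23 and 7.98 CPM, above the highest control. That rise of 2.12-fold (1.09 ± 0.24 on the log2 scale, edgeR adjusted p = 0.000204) differed from the adipocyte response by a log2 difference of -0.98 ± 0.30 (edgeR adjusted p = 0.00993), adipocytes minus hepatocytes, in a comparison that called 41.4% of genes. Without control hepatocyte replicate 1 the difference was -0.76 and did not pass (edgeR adjusted p = 0.052). Of the 6 adipocyte markers *Lep* was at 0 in both hepatocyte groups, *Adipoq* averaged 0.0418 CPM under PBS and 0.0165 CPM under butyrate, and *Plin1* 0.0410 and 0.0176 CPM. *Fabp4* and *Cidec* went from 4.65 to 10.6 CPM and from 3.19 to 11.6 CPM with butyrate, whereas *Pparg* went from 19.5 to 10.1 CPM, and the sum of the list was 26.5 to 28.4 CPM under PBS and 30.9 to 34.4 CPM under butyrate. The endothelial sum given above for these libraries was lower with butyrate. The part of adipocyte or endothelial RNA in the *Ffar4* result was not tested.

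In adipocytes, then, *Hcar1* and *Ffar2* fell with butyrate and *Ffar4* and *Hcar2* did not pass. The RefSeq start-site table holds a window for 4 of the 5 genes, all but *Hcar2*, and the bases just before the gene models of *Hcar1*, *Ffar2* and *Ffar4* are shown because these 3 shared a cell type but not a response. They lie at chr5:123880021-123880253 (minus strand), chr7:30823776-30824025 (minus strand) and chr19:38096829-38097070 (plus strand) of GRCm38.p6 and are written 5′ to 3′. Capitals mark matches to 4 motifs searched on both strands: the nuclear receptor core AGGTCA, the C/EBP core TTGCNNAA, the GC box GGGCGG and the TATA box TATAAA.
Hcar1: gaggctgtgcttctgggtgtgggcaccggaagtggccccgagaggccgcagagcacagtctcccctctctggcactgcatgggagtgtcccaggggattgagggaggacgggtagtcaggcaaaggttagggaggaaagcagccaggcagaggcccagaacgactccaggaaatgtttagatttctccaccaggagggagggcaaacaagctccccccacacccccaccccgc
Ffar2: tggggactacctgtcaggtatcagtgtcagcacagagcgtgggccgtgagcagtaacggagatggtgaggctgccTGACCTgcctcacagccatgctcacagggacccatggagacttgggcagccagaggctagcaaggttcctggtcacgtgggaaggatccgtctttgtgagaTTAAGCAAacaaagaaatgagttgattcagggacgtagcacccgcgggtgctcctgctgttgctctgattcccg
Ffar4: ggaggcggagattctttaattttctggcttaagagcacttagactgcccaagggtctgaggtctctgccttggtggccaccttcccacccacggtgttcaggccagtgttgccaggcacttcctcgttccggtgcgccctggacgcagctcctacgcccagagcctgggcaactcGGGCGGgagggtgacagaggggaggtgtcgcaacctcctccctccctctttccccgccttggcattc
*Ffar2* held a nuclear receptor core, on the other strand as TGACCT, and a C/EBP core as TTAAGCAA, which 14% and 9.6% of the 32817 RefSeq windows of 250 bases hold. The start-site table has 4 windows for *Ffar2*, and only the one nearest the start of its gene model is shown and marked. *Ffar4* held a GC box, found in 32.7% of windows. *Hcar1* held none of the 4 motifs, and no window shown held the TATA box (12.4% of windows), which says only that these letters are not in this stretch.

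*Gpr84* (chr15:103308235-103310612, minus strand, 2 exons) was the macrophage receptor of the set. PBS macrophages held 2.88, 3.07 and 3.20 CPM and βOHB macrophages 3.23, 3.79 and 2.47 CPM, on both sides of the controls (log2 fold change 0.05, edgeR adjusted p = 1). Butyrate left 0.304, 0.584 and 0.507 CPM, or 34 counts over the group against 203 in the controls. The decrease was 6.44-fold, a log2 change of -2.69 ± 0.34 (edgeR adjusted p = 5.15e-08). With no filter on low counts (32246 genes tested) the value was -2.70 (edgeR adjusted p = 2.67e-14). Macrophage markers summed to between 17157 and 17317 CPM under PBS and between 10609 and 11154 CPM under butyrate. The neutrophil list given beside *Hcar2*, nearly all of it *Csf3r*, averaged 47.8 and 9.87 CPM in the same libraries. The part of either in the *Gpr84* result was not tested. Control macrophages were 17.8-fold above adipocytes, 15.8-fold above myotubes and 21.4-fold above hepatocytes on 12, 13 and 7 counts. Adipocytes held 12 counts under βOHB and 3 under butyrate, and hepatocytes 11 and 16. The adipocyte change with butyrate (-1.81) did not pass (edgeR adjusted p = 0.0823) but did without control adipocyte replicate 3 (-2.26, edgeR adjusted p = 0.028). Against βOHB it passed with limma-voom (-1.87, adjusted p = 0.0379) and not with edgeR (adjusted p = 0.065).

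Of the 31-base stretches of the *Gpr84* transcript, 38.47% recur in *Gm49482*, a gene on the other strand of the same place, and the strand setting of the counting is not given in the sources used here. *Gm49482* had 0 counts in the 9 macrophage libraries, and without the strand setting reads from the pair cannot be told apart.

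In myotubes none of the 5 was detected in any group. Butyrate was called for 3 of them on very few counts. *Hcar1* went from 1 count over the 3 control libraries to 10 (ratio 9.38, counting interval 1.33 to 406.9, edgeR adjusted p = 0.0247). *Ffar4* went from 1 to 12 (ratio 11.2, counting interval 1.67 to 481, edgeR adjusted p = 0.0395). *Gpr84* went the other way, from 13 counts to 3 (ratio 0.216, counting interval 0.0396 to 0.788, edgeR adjusted p = 0.0388), beside the fall of the macrophage marker sum given above. Without control replicate 1 or control replicate 2 none of the 3 passed, and 1 passed without butyrate replicate 1 or butyrate replicate 3. Without butyrate replicate 2, the library with 522 CPM of hepatocyte markers, *Hcar1* and *Ffar4* still passed and *Gpr84* did not. The 2 counts of *Gpr84* over the βOHB libraries did not pass against the 13 of the controls (edgeR adjusted p = 0.208). The part of hepatocyte or macrophage RNA in these values was not tested.

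βOHB and butyrate differ by the hydroxyl group that βOHB carries, and the pair was compared directly at 5 mM and 6 h in the 4 cell types. The means of the control libraries do not enter these differences, while the spread and scaling were estimated with them. Of the 5 receptors, 2 differed in adipocytes, where 59.5% of genes did, 2 in macrophages (64.7%), 1 in myotubes (66%) and 2 in hepatocytes (63.5%). Butyrate libraries were lower in *Ffar2* by 1.77 ± 0.15 on the log2 scale in adipocytes (butyrate minus βOHB -1.77, edgeR adjusted p = 1.95e-09) and lower in *Hcar1* (-1.30 ± 0.16, edgeR adjusted p = 6.1e-08). In macrophages they were lower in *Gpr84* (-2.74 ± 0.34, edgeR adjusted p = 3.44e-08) and *Hcar2* (-1.42 ± 0.40, edgeR adjusted p = 0.00264). *Gpr84* passed the filter on low counts through the PBS and βOHB macrophages alone. With no filter its difference was -2.75 (edgeR adjusted p = 8.78e-15). In hepatocytes the butyrate libraries were higher in *Ffar4* (1.24 ± 0.24, edgeR adjusted p = 3.88e-05) and *Hcar2* (0.98 ± 0.34, edgeR adjusted p = 0.0143), but the *Hcar2* difference did not pass without βOHB replicate 3 (0.71) or without butyrate replicate 1 (0.84). The compounds were not shown to differ for *Hcar2* and *Ffar4* in adipocytes, with log2 intervals from -0.66 to 0.11 and from -0.35 to 0.41, although with no filter on low counts *Hcar2* passed (-0.31, edgeR adjusted p = 0.0458). The myotube call was *Ffar4*, on 12 counts against 1, and it was lost without βOHB replicate 2 (2.61, edgeR adjusted p = 0.113), where *Hcar1* passed instead (4.64, edgeR adjusted p = 0.013). No receptor was called there without βOHB replicate 3, butyrate replicate 1 or butyrate replicate 3.

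The genes whose log2 CPM ran closest to each receptor over the 36 libraries are given by Pearson's r as a description, since the libraries fall into 4 cell types that set most of r. Nearest to *Hcar2* were *Enpp2* (0.972), which encodes autotaxin, *Zfp655* (0.971) and *Pde3b* (0.969), the phosphodiesterase that breaks down cyclic AMP under insulin. *Ffar2* ran closest to *Mc2r* (0.99), the receptor for corticotropin, *Trarg1* (0.986) and *A530053G22Rik* (0.986), and *Hcar1* to *Chrdl1* (0.987), *Trarg1* (0.985) and *Aoc3* (0.984). Among those nearest to *Ffar4* were *Ces1d* (0.988) and *Gstm2* (0.982). *Gpr84* had the loosest neighbours, *Wwp1* (0.926), *Gm43351* (0.916) and *Nfkbid* (0.916).

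Of 8 further receptors for fatty acids and carboxylic acids, *Ffar1*, *Ffar3*, *Gpr119*, *Oxgr1* and *Olfr78* fell below the filter and averaged at most 0.0309 CPM in the controls of any cell type. FFAR3 is the other receptor for short-chain fatty acids, and *Ffar3* was at 0 in the control libraries of all 4 cell types. *Gpr35*, a receptor for kynurenic acid, was at 25.6 ± 4.87 CPM (SD, n = 3) in control adipocytes, 3.53 in macrophages, 1.71 in myotubes and 1.57 in hepatocytes. Butyrate lowered it in adipocytes (log2 fold change -1.26 ± 0.18, edgeR adjusted p = 5.91e-07), in macrophages (-0.76 ± 0.26, edgeR adjusted p = 0.0122), where the call was lost with library totals as the sole scaling, and in hepatocytes (-1.97 ± 0.47, edgeR adjusted p = 0.000464). *Sucnr1*, the succinate receptor, was at 6.02 CPM in control adipocytes and 6.13 CPM with butyrate, but in hepatocytes it rose from 0.412 to 5.07 CPM (3.62 ± 0.26, edgeR adjusted p = 2.1e-12). The fatty acid translocase *Cd36* fell with butyrate in adipocytes (2010 to 1407 CPM), macrophages (610 to 397), myotubes (107 to 61.3) and hepatocytes (9.94 to 8.07), the last being lost with library totals as the sole scaling. In macrophages *Sucnr1* was listed at 0 in the controls and averaged 0.0690 CPM with butyrate (edgeR adjusted p = 0.018). Under βOHB 0 of the 3 tested were called in any cell type by edgeR.

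The genes that carry the receptors' signal were counted list by list, beside the share of all tested genes called with butyrate. In adipocytes 30.7% of genes were called higher and 30.3% lower, in macrophages 31.9% higher and 33.2% lower, in myotubes 33.1% higher and 33.4% lower, and in hepatocytes 31% higher and 32.4% lower. Of the Gi, Go and Gz alpha subunits, 5 of 5 were called higher with butyrate in adipocytes, 3 in macrophages, 5 in myotubes and 4 in hepatocytes, and 0 lower in any. The median log2 fold change of the 5 was 0.59, 0.45, 1.08 and 2.04, where the median of all tested genes was at 0 in the first 3 cell types and at -0.01 in hepatocytes. *Gnai1* went from 75.9 to 114 CPM in adipocytes and from 2.31 to 9.58 CPM in hepatocytes. *Gnaz* went from 0.485 to 3.62 CPM in adipocytes, 0.406 to 2.39 CPM in macrophages, 1.07 to 7.96 CPM in myotubes and 0.223 to 2.81 CPM in hepatocytes. *Gnao1*, the Go subunit, went from 13.3 to 35.7 CPM in adipocytes and from 15.4 to 42.6 CPM in myotubes. *Gnai3* was called higher in adipocytes (0.20), myotubes (0.23) and hepatocytes (0.23). *Gnai2*, at 802 CPM the most abundant of the list in control macrophages, was called in adipocytes (0.58 ± 0.06, edgeR adjusted p = 1.13e-09) and myotubes (0.31 ± 0.06) and not in macrophages (-0.04) or hepatocytes (0.01). With library totals as the sole scaling, which moved the median of all genes by 0.20 in macrophages and 0.13 in myotubes, the macrophage count became 5 of 5 and no called gene of this list turned.

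Among the Gq family alpha subunits *Gna11* was called higher in all 4 cell types (log2 fold changes 0.35, 0.36, 0.51 and 0.73 in adipocytes, macrophages, myotubes and hepatocytes). Of 4 Gq subunits 3 were tested, with 1 called higher in each cell type and 0, 2, 2 and 1 called lower. *Gnaq* was called lower in macrophages (-0.72), and in myotubes (-0.21) and hepatocytes (-0.19), where it was not called with library totals alone. *Gna15*, the alpha subunit of blood cells, was called lower in macrophages (-0.57, edgeR adjusted p = 0.0148), a call lost with library totals alone, and fell in myotubes from 0.566 to 0.0704 CPM with butyrate (edgeR adjusted p = 9.27e-05) and to 0.103 CPM with βOHB (edgeR adjusted p = 0.0124), beside the lower macrophage marker sums in both. *Grk3* was the other gene of these lists called under βOHB, at 1.196 CPM in control myotubes and 0.343 CPM with βOHB (edgeR adjusted p = 0.00286).

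**Figure D4:**
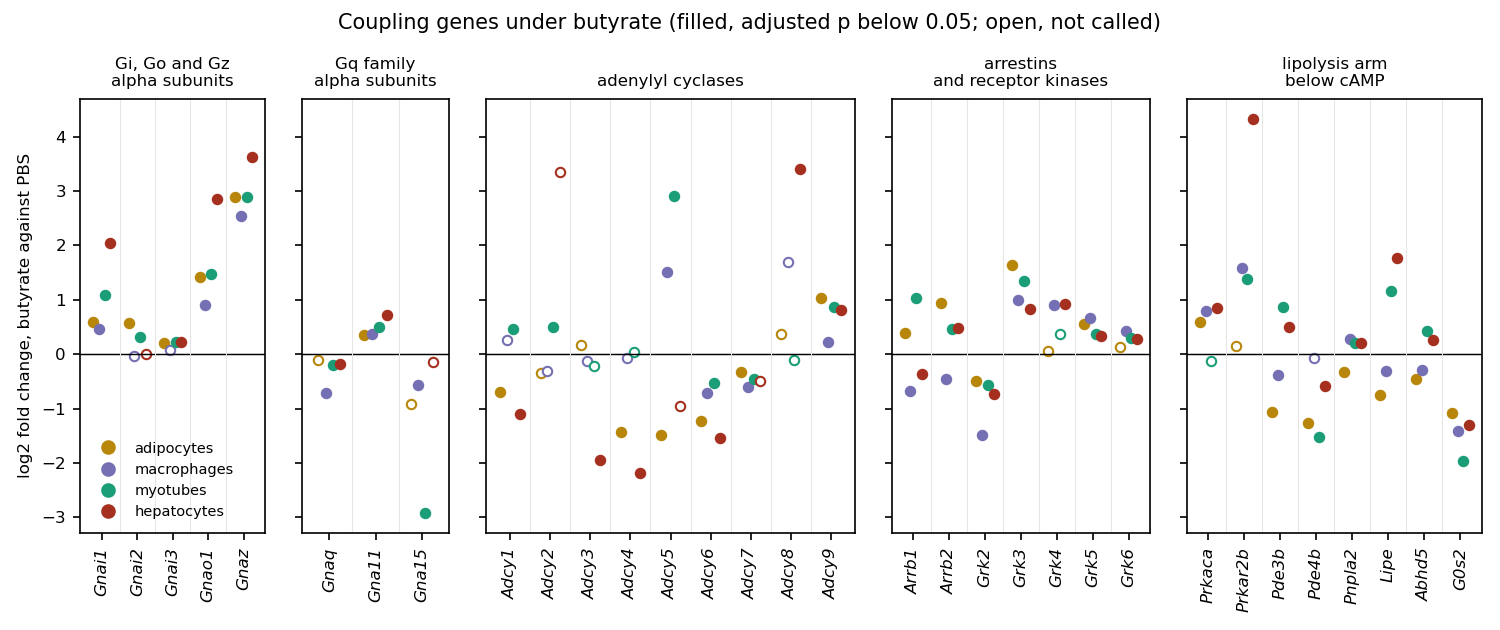
log2 fold change of butyrate against PBS (y axis) for the tested genes of 5 coupling lists (x axis) in the 4 cell types (colour), with filled points for an adjusted p below 0.05 and open points for genes not called. The filled points of the Gi, Go and Gz subunits all lie above 0, and those of *Adcy6*, *Grk2* and *G0s2* all lie below 0.

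Of 10 adenylyl cyclases, which make cyclic AMP, 9 were tested. Butyrate was called lower for 5 and higher for 1 in adipocytes, 2 and 2 in macrophages, 2 and 4 in myotubes and 4 and 2 in hepatocytes. *Adcy5* and *Adcy6*, at 169.5 ± 6.01 and 136.4 ± 3.62 CPM (SD, n = 3) the most abundant cyclases of control adipocytes, fell to 60.6 and 58.3 CPM with log2 fold changes of -1.48 and -1.23 (edgeR adjusted p = 3.89e-13 and 4.06e-16). *Adcy6* fell in the other 3 cell types too, by -0.72 in macrophages, -0.52 in myotubes and -1.55 in hepatocytes. *Adcy9* was called higher in all 4, with 1.02 in adipocytes and 0.23 in macrophages at the ends. *Adcy7* was called lower in adipocytes (-0.32), macrophages (-0.61) and myotubes (-0.46). *Adcy8* was called in hepatocytes on 0.0197 CPM in the controls and 0.275 CPM with butyrate (edgeR adjusted p = 0.00808). In myotubes *Adcy5* went from 0.269 to 2.08 CPM (2.91 ± 0.36, edgeR adjusted p = 2.88e-08). With library totals alone *Adcy1* and *Adcy7* lost their calls in adipocytes, where the count lower became 3.

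Of the arrestins and receptor kinases, which switch the receptors off, 7 of 7 were tested, and 4, 4, 5 and 5 were called higher and 1, 3, 1 and 2 lower with butyrate in adipocytes, macrophages, myotubes and hepatocytes. *Grk2* fell in each, most in macrophages, from 221 to 78.7 CPM (-1.49 ± 0.06, edgeR adjusted p = 2.38e-19). *Grk3* rose in each, with log2 fold changes of 1.63, 1.00, 1.35 and 0.83, and *Grk5* rose in each by less (0.56, 0.66, 0.38 and 0.33). *Arrb2* was called higher in adipocytes (0.95), myotubes (0.46) and hepatocytes (0.48) and lower in macrophages (-0.46). *Grk6* was called higher in macrophages (0.42), myotubes (0.29) and hepatocytes (0.27). *Grk4* was called in macrophages (0.91) and in hepatocytes (0.93, edgeR adjusted p = 0.0351) on a level of 0.345 CPM.

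The last list holds 8 genes of the lipolysis arm below cyclic AMP, on which HCAR1 and HCAR2 act in adipocytes. With butyrate 6 were called lower and 1 higher in adipocytes, 4 and 3 in macrophages, 2 and 5 in myotubes and 2 and 6 in hepatocytes. The adipocyte members that fell were the phosphodiesterases *Pde4b* (-1.27) and *Pde3b* (-1.06), the lipolysis inhibitor *G0s2* (-1.09), hormone-sensitive lipase *Lipe* (-0.75), *Abhd5* (-0.46), the co-activator of adipose triglyceride lipase, and that lipase itself, *Pnpla2* (-0.32). *Prkaca*, a catalytic subunit of protein kinase A, rose (0.59). *Lipe* went from 739 ± 28.1 to 438 ± 43.0 CPM (SD, n = 3) in adipocytes but from 10.9 to 37.1 CPM in hepatocytes and from 4.57 to 10.3 CPM in myotubes. *G0s2* fell in all 4 cell types. *Prkar2b*, a regulatory subunit of protein kinase A, rose from 25.2 to 75.2 CPM in macrophages and from 12.2 to 31.6 CPM in myotubes. In macrophages *Pde3b*, *Lipe* and *Abhd5* lost their calls with library totals alone. Under βOHB the lipolysis list had 0 of 8 called by edgeR in each cell type, with medians between -0.02 and 0.07.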

How the data were processed

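RNA of 36 libraries (4 cell types, 3 treatments, 3 libraries per group) was sequenced by the authors as paired reads of 150 bases from randomly primed cDNA. The deposited table holds estimated counts per gene, which the authors made with Salmon 1.2.1, and 55.6% of the values above 0 are whole numbers; the study's methods describe scaling for transcript length and library size on import, and whether the deposited values carry it is not given in the sources used here. The estimated counts were rounded and scaled by TMM factors (0.823 to 1.197). A gene was kept when 6 or more libraries exceeded 1 CPM, which left 15340 of 54347, and edgeR 4.0.16 was applied to these (quasi-likelihood F test, 12 group means, all 36 libraries, Benjamini-Hochberg adjustment) in R 4.3.3. limma 3.58.1 (voom), DESeq2 1.42.0, other scalings and filters, a replicate block, single-cell-type fits and leaving out each library were alternatives. Code was tested on simulated data.

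The receptors and gene lists were chosen with earlier results of these data known. Named were the 5 receptors, the 3 genes with the highest correlation to each (for *Ffar4* one of them is not reported here), listed receptors at 1 CPM or more in the controls of a cell type, and coupling genes called in 1 direction in at least 3 cell types or with the largest change in one. Other coupling genes, such as *Lipe*, *Pde3b*, *Abhd5* and *Gnai2*, were named after their values were seen. Replicate numbers were not used to pair the libraries. Libraries with the same number correlated between -0.264 and 0.273 in their deviations from the group means, and those with other numbers between -0.381 and 0.355. For PBS and butyrate adipocytes each same-number value (0.0159 to 0.0539) lay above the other-number values (-0.0529 to 0.0114), so a weak pairing there is not excluded. No library was a duplicate of another, the lowest chi-square per gene over 36 replicate pairs being 2.68.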

Additional observations from a re-analysis of the deposited data

Results flagged for a closer look

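The butyrate response of *Hcar2* and *Ffar4* differed between cell types that detected them under PBS or butyrate (*Hcar2* in hepatocytes under butyrate alone), by an interaction test (edgeR, adjusted over all genes). For *Hcar2* the adipocyte response exceeded that of macrophages by 1.41 ± 0.44 on the log2 scale (adjusted p = 0.0115), in a comparison that called 36.6% of genes. Without butyrate macrophage replicate 3 this was 1.12 and did not pass (adjusted p = 0.0636). The *Hcar2* response in adipocytes minus that in hepatocytes was -1.54 ± 0.42 (adjusted p = 0.00368; 41.4% of genes called), and that in macrophages minus hepatocytes was -2.95 ± 0.54 (adjusted p = 4.4e-05), where 44.4% of genes were called. For *Ffar4* adipocytes minus hepatocytes gave -0.98 ± 0.30 (adjusted p = 0.00993), and without control hepatocyte replicate 1 it was -0.76 and did not pass (adjusted p = 0.052).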

How the results depend on the processing

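Over 84 log2 fold changes of the receptors, 1054 values were recomputed under alternatives. Of these, 1006 kept their side of the threshold, 33 no longer passed, 15 passed anew and 0 calls reversed; 36 of the 1006, never called, changed sign. With the replicate block each count of receptors called was as before, 2, 2, 3 and 2 under butyrate in adipocytes, macrophages, myotubes and hepatocytes, and the block changed no other call. For butyrate against PBS in myotubes the count of 3 became 2 with limma-voom or library totals alone, 1 with only the myotube libraries fitted, and it ranged from 0 to 3 when 1 library was left out. For butyrate against βOHB the macrophage count was 4 with limma-voom in place of 2, and the myotube count was 2 with limma-voom and 2 with library totals alone in place of 1, and 0 to 1 with 1 library left out. For butyrate against PBS the macrophage count of 2 was 3 with limma-voom, where *Ffar2* passed (-1.67), and with library totals alone. In adipocytes *Gpr84* passed as well without control adipocyte replicate 3 (-2.26, edgeR adjusted p = 0.028). For butyrate against βOHB the macrophage count was 3 with DESeq2 and with library totals alone, the adipocyte count was 3 in place of 2 with limma-voom or no filter, and the hepatocyte count was 1 to 2 with 1 library left out. The cause was not tested. Depth limits most the receptors with few counts, as in myotubes, where the counting intervals of the ratios are wide.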
